A study of Caenorhabditis elegans and Caenorhabditis briggsae
Caenorhabditis elegans with 146 samples.

Results

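The nuclear envelope of Caenorhabditis elegans was followed through 7 genes picked by name from the gene expression table of a dosage compensation study: lmn-1, baf-1, emr-1, lem-2, unc-84, zyg-12 and hpl-1. The table lists 20411 genes, and all 7 were found in it and passed the filter on low values in every comparison. Levels are FPKM, fragments counted per length of transcript and per depth of library, so that genes of different length can be set side by side. Whole worms were measured by mRNA-seq in 79 libraries that fall into 23 groups, and a further 6 libraries of L1 larvae carried a C. briggsae spike-in and were given as read counts.

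The nuclear lamina is a protein mesh beneath the inner nuclear membrane that gives the nucleus its shape and tethers chromatin. In C. elegans it is built from a single lamin, LMN-1. The LEM-domain proteins of the inner membrane, emerin (EMR-1) and LEM-2, bind lamin and also BAF-1, the barrier-to-autointegration factor, a small DNA-binding protein needed to rebuild the envelope after mitosis. SUN-domain proteins of the inner membrane and KASH-domain proteins of the outer membrane join the nucleus to the cytoskeleton. UNC-84 is a SUN protein used in nuclear migration and anchorage, and ZYG-12 is a KASH protein that attaches the centrosome to the nucleus. HPL-1 is a heterochromatin protein 1 homologue, a family that binds methylated histone H3 lysine 9. Dosage compensation in this animal is carried out by a condensin-containing complex that binds both X chromosomes of XX hermaphrodites and lowers their expression. DPY-27 is the condensin subunit particular to that complex, DPY-21 is another subunit, and SET-1 and SET-4 are the enzymes that add methyl groups to histone H4 lysine 20.

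By the RefSeq gene table (assembly WBcel235), lmn-1 (WBGene00003052, DY3.2) and emr-1 (WBGene00001309, M01D7.6) lie on chromosome I. Chromosome II holds lem-2 (WBGene00002275, W01G7.5) and zyg-12 (WBGene00006997, ZK546.1), and baf-1 (WBGene00000235, B0464.7) is on chromosome III. The X chromosome holds unc-84 (WBGene00006816, F54B11.3) and hpl-1 (WBGene00001995, K08H2.6). The expression table was made on the WS220 genome release, so no coordinates are given.

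Wild-type N2 hermaphrodites (XX) and a mixed sex population (XX and XO) of strain BS553, which carries fog-2(oz40) so that it reproduces only by mating, were each collected as early embryos, comma-stage embryos, L1 larvae and L3 larvae, with 3 libraries a group. Sex and strain cannot be told apart in that pair. Early embryos had fewer than 40 cells, comma embryos were early embryos aged for 4 h, L1 larvae had fed for 6 h and L3 larvae for 24 h. Early embryos were also taken from the dpy-21(e428) strain CB428 (3 libraries) and from the dpy-27(y56) strain MK4, which is kept over a balancer chromosome. The 3 dpy-27 mutant libraries came from homozygous mothers, so that maternal and zygotic DPY-27 were both missing, and 2 libraries are labelled heterozygous. L1 larvae of dpy-27(y56) gave 3 libraries. L3 larvae of dpy-21(e428), of set-4(n4600) (strain MT14911) and of N2 in a second collection gave 4 libraries each, and mixed-stage embryos of both mutants also gave 4 libraries each. Larvae of the set-1(tm1821) strain SS1075 were sorted as homozygotes and heterozygotes by a fluorescent balancer, with 3 libraries each, and are labelled L2. N2 worms fed dpy-27 RNAi or empty-vector bacteria gave 4 RNAi and 6 vector libraries of mixed embryos and 4 of each at L3. Each library of that experiment pooled several collections.

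Several libraries stood apart from their labels or replicates. The third N2 L1 library and the first mixed sex L1 library held identical values in 20376 genes. Both were left out of comparisons that use L1, which leaves 2 libraries in each of those groups. Mixed embryos labelled dpy-21 gave set-4 transcript levels of 62.2, 32.7, 0.223 and 44.4 FPKM, and those labelled set-4 gave 0.043, 52.6, 0.138 and 0.0534, so 1 library of each label went against it. The dpy-21 transcript in that dpy-21 library was at 46.5 FPKM, against 31.4 to 35.1 in the others of its label. In that set-4 library it was at 36.5 FPKM, against 58.7 to 74.3 in the others of its label. Whether the libraries were exchanged was not tested. At L3 the set-4 transcript was at 0 to 0.895 FPKM in the set-4 mutant and 7.96 to 11.2 in N2. The dpy-27 transcript was 26 to 36.9 FPKM in RNAi mixed embryos against 64.9 to 135 with vector. At L3 it was 15.7 to 19.9 in 3 RNAi libraries, 115 in the library labelled RNAi 1 and 17.1 to 26 with vector, so that the knockdown was not visible in the transcript there. The third dpy-21 early embryo library correlated better with N2 (r of 0.949 to 0.958 over genes) than with its own replicates (0.872 to 0.885). Its dpy-21 transcript was at 21.3 FPKM, against 75 and 48.5 in those replicates and 83.6 to 88.6 in N2. The second heterozygous library correlated at 0.714 to 0.729 with N2, 0.852 with its partner and up to 0.941 with dpy-21 libraries. The third dpy-27 mutant early embryo library correlated at 0.721 to 0.737 with N2 and 0.853 to 0.855 with its replicates. Those replicates correlated at 0.95 with each other. Male sex was visible in the mixed sex embryos, in which her-1, the gene that directs male development, was at 85.1 to 134 FPKM in early embryos against 7.32 to 9.48 in N2. In mixed sex L3 library 1 her-1 was at 0 FPKM, as in the first N2 L3 collection, against 4.76 and 8.49 in its replicates. Its fog-2 transcript was at 4.81 FPKM against 1.41 and 1.05 in those replicates. The first N2 L3 collection held fog-2 at 4.23 to 5.58 and the second at 0.627 to 2.58. That library was kept under its label in every comparison that uses mixed sex L3 larvae. The library found under both L1 labels held her-1 at 1.15 FPKM and fog-2 at 2.66. In the other N2 L1 libraries her-1 was at 0 and 6.51 FPKM and fog-2 at 9.48 and 4.14. In the other mixed sex L1 libraries her-1 was at 17 and 47.6 FPKM and fog-2 at 0 and 0.457. Which of the labels that L1 library belongs to was not tested.

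Of the 4 stages of N2, the mean levels of the 5 autosomal genes were highest in early embryos and those of unc-84 and hpl-1 at the comma stage. In N2 early embryos baf-1 was the highest of the 7 genes at 860, 866 and 684 FPKM, followed by lmn-1 at 456, 415 and 433. The LEM genes were next, with emr-1 at 312, 313 and 308 and lem-2 at 312, 302 and 266. Levels of zyg-12 were 109, 110 and 127, those of unc-84 were 96, 109 and 81.4, and those of hpl-1 were 20.5, 26.6 and 19.1. The 3 libraries of each gene stayed close to each other, and only emr-1 and lem-2, and unc-84 and zyg-12, had ranges that met.

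**Figure D1:**
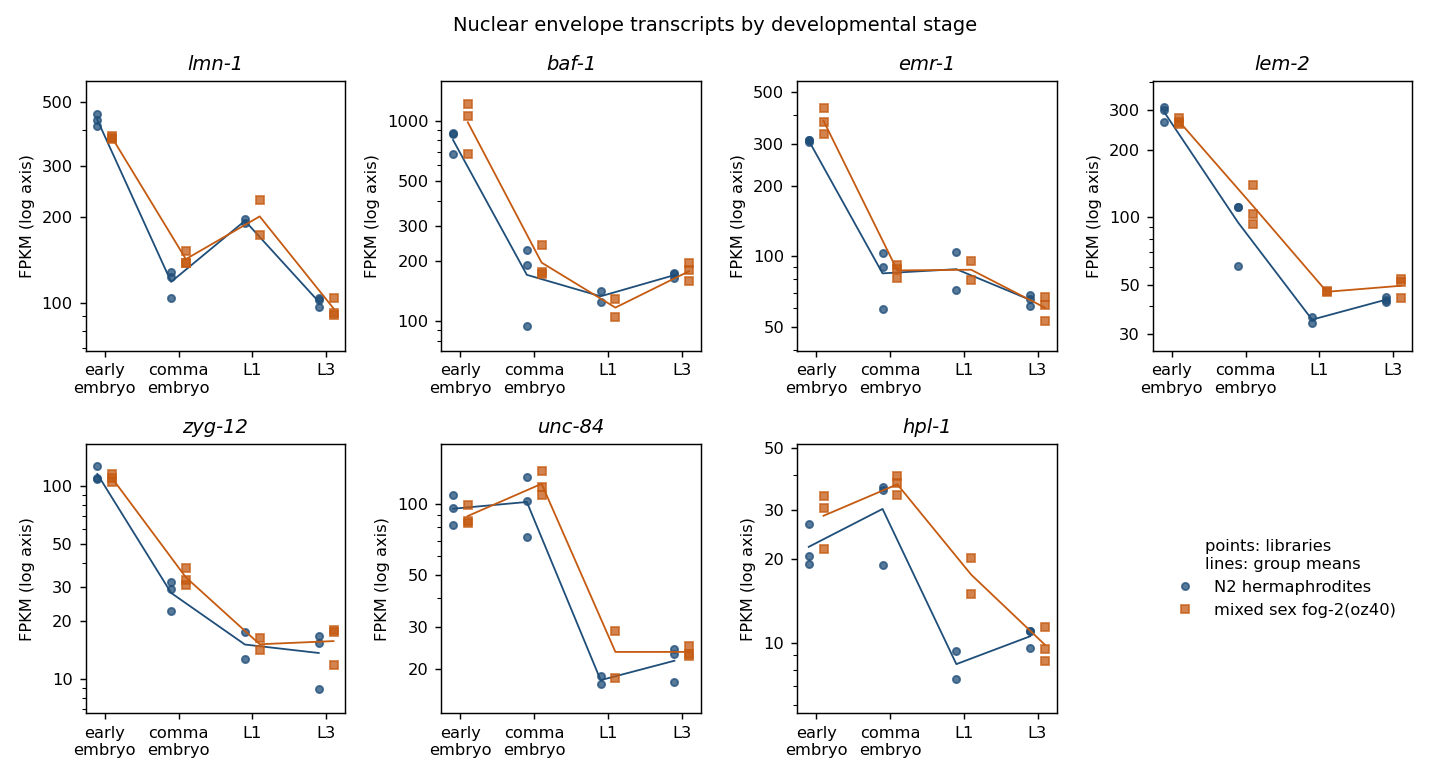
FPKM of each of the 7 genes (log scale, 1 panel a gene) in early embryos, comma embryos, L1 and L3 larvae of N2 and of mixed sex animals, each point being a library and each line joining the group means. The 5 autosomal genes drop between early and comma embryos, while unc-84 and hpl-1, both on the X, stay high until the comma stage and are low at L1.

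Between early and comma embryos the 5 autosomal genes fell. Comma embryos of N2 held lmn-1 at 129, 123 and 104 FPKM, a log2 difference of -1.92 ± 0.11 (SE, limma, adjusted p = 2.8e-06), or 3.77-fold lower. The level of baf-1 was 225, 191 and 94.9 FPKM, the largest fall of the 7 at -2.36 ± 0.26 (adjusted p = 6.6e-05) or 5.14-fold. For emr-1 the comma libraries gave 104, 90.4 and 59.5 FPKM, 3.88-fold lower, and for lem-2 they gave 111, 111 and 60.7, 3.31-fold lower. The third library was the lowest for all of these genes, and no comma library reached the early embryo range. ZYG-12 links the centrosome to the nucleus in dividing cells, and its transcript fell 4.25-fold to 29.4, 31.9 and 22.7 FPKM. So 5 of 7 genes were lower and 0 higher, in a comparison in which 84.6% of the 11755 genes tested passed the threshold of 0.05, 45.3% higher and 39.3% lower. The summed level of 11 dividing cell markers (cyclins, cdk-1, plk-1, pcn-1 and the MCM helicase genes) moved with these falls, from 11674 to 12281 FPKM in early embryos to 511 to 1427 at the comma stage. The part of cell division in the falls was not tested, and in whole animals fewer cells of a type and less RNA per cell cannot be told apart.

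The X-linked pair did not pass the test over the same interval. For unc-84 the comma libraries gave 103, 130 and 72.8 FPKM, overlapping the early range, with a difference of 0.02 (95% interval -0.41 to 0.46, limma, adjusted p = 0.91). For hpl-1 they gave 35.4, 36.1 and 19, with a difference of 0.37 (-0.18 to 0.91, adjusted p = 0.18). Here 1 library decided the call, since without the third comma library, the lowest, hpl-1 was 0.66 higher with adjusted p = 0.0097. Among X genes as a whole, 65.3% rose and 20.1% fell over this interval.

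From the comma stage to L1 the order of the genes changed again. The lamin transcript rose to 197 and 191 FPKM in N2, 1.72-fold (0.78 ± 0.14, limma, adjusted p = 0.0068). By contrast unc-84 fell to 17.2 and 18.5 FPKM, 5.25-fold (-2.39 ± 0.26, adjusted p = 0.0016), and hpl-1 to 7.43 and 9.32, 3.28-fold (-1.71 ± 0.34, adjusted p = 0.0098). Both larval libraries of each X-linked gene lay far below the embryonic range. Of the LEM genes lem-2 fell 2.47-fold to 33.8 and 36 FPKM (adjusted p = 0.014), while emr-1 at 104 and 72.1 differed by 0.15 (-0.55 to 0.84). A fall of zyg-12 to 17.5 and 12.8 FPKM passed narrowly (-0.81 ± 0.25, adjusted p = 0.042) and failed in 6 of 11 alternative settings. The change in baf-1, to 125 and 141 FPKM, was -0.19 (-1.08 to 0.69). Thus 1 gene rose and 4 fell where 49.8% of all genes passed, 25.5% higher and 24.3% lower. The lem-2 call was lost without either L1 library (adjusted p of at most 0.10) and the hpl-1 call without the first (adjusted p = 0.077). Over the same step body muscle markers summed to 606 to 1128 FPKM at the comma stage and 1935 and 1672 at L1, intestine markers to 373 to 684 and then 2170 and 1920, and epidermis markers to 913 to 996 and then 103 and 112, and the part of these shifts was not tested.

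From L1 to L3 changes were smaller, and 29.4% of all genes passed, 15.9% higher and 13.4% lower. The lamin transcript fell 1.62-fold to 103, 96.9 and 104 FPKM (-0.69 ± 0.11, limma, adjusted p = 0.014), below both L1 libraries. Germline markers were at 21.2 and 20.4 FPKM in sum at L1 and 167 to 205 at L3, and their part in these changes was not tested. For baf-1 the L3 libraries were at 174, 164 and 172, above both L1 libraries (0.59 ± 0.12, adjusted p = 0.024), and lem-2 was at 41.9, 43.9 and 42.7 (0.54 ± 0.13, adjusted p = 0.033). In L3 larvae baf-1 was again above lmn-1, as in early embryos. At this stage unc-84 was at 24.3, 23.1 and 17.5, hpl-1 at 11.1, 11 and 9.59, and zyg-12 at 16.7, 15.5 and 8.9. Those 3 genes did not pass (adjusted p = 0.080, 0.091 and 0.89), nor did emr-1 at 61.5, 65.7 and 68.4 (adjusted p = 0.52). The calls were fragile: with 1 library left out the number of genes called was 0 to 4, with 0 without N2 L3 library 1 or 2 and 1 without N2 L1 library 1. Without scaling between libraries, where the share of higher genes among all calls was 38.2% instead of 54.3%, the fall of lmn-1 was the only call.

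The mixed sex series followed the same course in its own test. Early to comma, the same 5 autosomal genes fell (80.8% of all genes passed, 42.8% higher and 38% lower), with log2 differences from -1.28 for lem-2 to -2.31 for baf-1. In addition unc-84 rose from 84.7, 99 and 83.2 FPKM to 109, 139 and 118, with no overlap (0.44 ± 0.11, limma, adjusted p = 0.0063). For hpl-1 the values were 30.3, 33.6 and 21.7 in early embryos and 33.7, 37.4 and 39.8 at the comma stage (0.39 ± 0.16, adjusted p = 0.057). Comma to L1, where 62.2% passed, 32.3% higher and 29.9% lower, lmn-1 rose by 0.69. In the same step unc-84 (-2.18), lem-2 (-1.04), zyg-12 (-0.93), hpl-1 (-0.87) and baf-1 (-0.53) fell. The fall of baf-1 passed in only 3 of 11 alternative settings, and it was lost with any of the 5 libraries left out. The hpl-1 call was lost with the replicate block and without comma library 2 or 3 (adjusted p of at most 0.064), and the lem-2 call without L1 library 3 (adjusted p = 0.055). From L1 to L3, with 33.4% of all genes passing (20.5% higher, 13% lower), baf-1 rose 1.91-fold (adjusted p = 0.0092) and lmn-1 fell 1.65-fold (adjusted p = 0.013). The lmn-1 call was lost with the replicate block and without L3 library 2 or 3 (adjusted p of at most 0.073). The lmn-1 and baf-1 calls were kept without L3 library 1, in which her-1 was at 0 FPKM. Without scaling between libraries, the share of higher genes among all calls in that interval was 39.2% instead of 61.2%, and hpl-1 was lower as well (adjusted p = 0.042).

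Other genes of the nuclear envelope give the setting of these changes. Between early and comma embryos of N2, where 39.3% of all genes fell and 45.3% rose, 23 of 23 nucleoporins tested fell, with a median log2 difference of -2.16 against 0.24 over all genes, and npp-22, a membrane nucleoporin, fell by 3.35. Likewise 8 of 8 Ran and nuclear import genes fell, led by the importin alpha gene ima-2 at -3.72. Of 5 genes of H3K9 methylation and heterochromatin, 5 fell, with lin-61, a reader of that mark, at -1.75. Of 7 further envelope genes tested, 3 rose and 4 fell. The KASH gene anc-1, which anchors nuclei in the large syncytial cells of the body, rose by 5.21 ± 0.38 (limma, adjusted p = 7.8e-06), and sun-1, the SUN gene of the germ line and the early embryo, fell by 5.21 ± 0.29 (adjusted p = 2.8e-06). In the step from comma to L1, where 25.5% of all genes rose and 24.3% fell, 2 of the 23 nucleoporins rose and 3 fell, with a median of -0.05, and 3 of the 8 import genes rose and 0 fell.

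Comparison of N2 with mixed sex animals at each stage asks whether the genes differ with sex and strain together. The mixed sex animals include XX, so a difference between XX and XO would appear smaller here. In early embryos 0 of 7 genes passed (15.6% of all genes did, of which 43.9% were higher in N2, or 23% without scaling), and 1 had an unadjusted p under 0.05. That gene was lmn-1, at 456, 415 and 433 FPKM in N2 against 371, 382 and 376 in mixed sex embryos, with no overlap (0.31, 95% interval 0.07 to 0.54, limma, adjusted p = 0.078). Markers also separated these embryos: dividing cell markers summed to 11674 to 12281 FPKM in N2 and 8956 to 10056 in mixed sex embryos, with 4 of 11 called higher in N2. Body muscle markers summed to 28.5 to 42.9 FPKM against 54 to 59.9 (3 of 4 called lower in N2), intestine markers to 6.6 to 12.2 against 20.6 to 30.7 and epidermis markers to 94.3 to 99.5 against 122 to 165 (1 of 3 tested called lower in each). The part of these shifts in the values of lmn-1, here and in its change by stage, was not tested. Levels of emr-1 were also apart and not called, at 308 to 313 FPKM in N2 and 333 to 429 in mixed sex embryos. The X-linked genes differed by 0.20 (-0.12 to 0.52) for unc-84 and -0.26 (-0.70 to 0.18) for hpl-1. At the comma stage, L1 and L3, 0 of 7 genes passed and 0 had an unadjusted p under 0.05, where 0.0683%, 0% and 0.0157% of all genes passed. At the comma stage lmn-1 was apart in the other direction, at 104 to 129 FPKM in N2 and 138 to 152 in mixed sex embryos. At L1 lem-2 was apart, at 33.8 and 36 FPKM in N2 and 46.2 and 46.8 in mixed sex larvae. The L3 comparison includes mixed sex library 1, in which her-1 was at 0 FPKM. The widest interval was that of hpl-1 at L1, 7.43 and 9.32 FPKM in N2 against 20.2 and 14.9, a difference of -0.98 (-1.99 to 0.02). Tested as a difference between N2 and mixed sex animals in the step from early to comma embryos, the fall of lmn-1 was steeper in N2 by 0.50 ± 0.13 on the log2 scale, in a test in which 7.8% of all genes passed (limma, adjusted p = 0.039). Of all calls in it 77.6% were positive, or 89.3% without scaling. That call was lost in 13 of 17 alternative settings.

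Early embryos without DPY-27 held less of 4 autosomal transcripts and more of both X-linked ones than N2. The level of lem-2 was at 197, 152 and 170 FPKM against 312, 302 and 266 in N2, 1.88-fold lower (-0.91 ± 0.13, limma, adjusted p = 0.0016). For lmn-1 the mutant libraries gave 354, 287 and 332 FPKM (-0.57 ± 0.12, adjusted p = 0.0068), and for emr-1 252, 253 and 233 (-0.48 ± 0.11, adjusted p = 0.0082). Neither gene had a mutant library within the N2 range. The level of baf-1 was 573, 547 and 544 FPKM, 1.59-fold lower than in N2 (-0.67 ± 0.14, adjusted p = 0.0059), also without overlap. Only zyg-12 among the autosomal genes failed, at 103, 83.2 and 111 FPKM, which overlaps N2 (-0.37, 95% interval -0.69 to -0.04, adjusted p = 0.060). Low emr-1 and baf-1 were not particular to embryos without DPY-27. Heterozygous libraries gave emr-1 at 205 to 264 FPKM and baf-1 at 502 to 660, below all N2 libraries. In dpy-21 early embryos they were at 185 to 269 and 484 to 677, also below all N2 libraries. Neither gene passed in those comparisons.

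Both X-linked genes were higher in the dpy-27 mutant embryos. The level of unc-84 was 189, 180 and 138 FPKM against 96, 109 and 81.4 in N2, 1.59-fold higher (0.67 ± 0.17, limma, adjusted p = 0.015). For hpl-1 it was 41.3, 40.5 and 35.6 against 20.5, 26.6 and 19.1, 1.61-fold higher (0.69 ± 0.18, adjusted p = 0.014). All 3 mutant libraries lay above all 3 N2 libraries for each gene. So 6 of 7 genes were called, 2 higher and 4 lower, where 48% of all genes and 60.7% of X genes passed. Over all genes 26.2% were higher and 21.8% lower, and of X genes 54% were higher. Without scaling between libraries the share of higher genes among all calls was 66.4% instead of 54.5%. For comparison, all X genes tested had a median log2 difference of 1.00, above the values of unc-84 and hpl-1, and autosomal genes had one of -0.15. The number of calls was 4 to 7 with 1 library left out. The unc-84 call was lost without N2 library 1 or 3 or mutant library 1 or 2, and the hpl-1 call without N2 library 1, with adjusted p of at most 0.067.

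**Figure D2:**
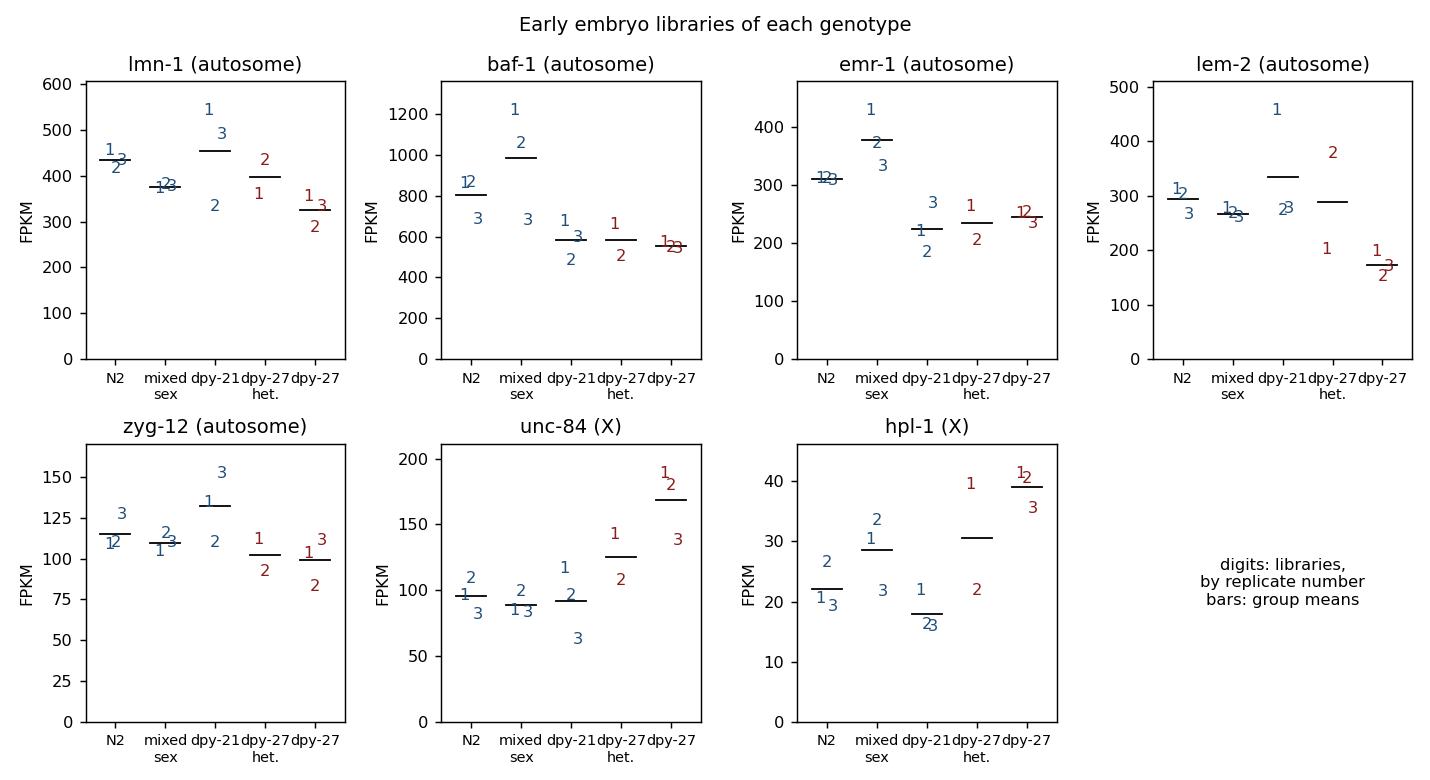
FPKM (linear scale from 0, 1 panel a gene) in early embryos of N2, mixed sex, dpy-21, heterozygous dpy-27 and dpy-27 animals, each digit being a library, by its replicate number, and each bar a group mean. In the dpy-27 column unc-84 and hpl-1 lie above N2 and lmn-1, baf-1, emr-1 and lem-2 lie below it, and the 2 heterozygous libraries are far apart for lem-2.

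Marker genes of other stages and cell types moved with the same mutant libraries. All 11 dividing cell markers were lower, with a sum of 6415 to 7540 FPKM against 11674 to 12281 in N2, and 6 of 6 germline markers were lower (223 to 295 against 389 to 585). All 4 body muscle markers were higher (149 to 236 FPKM against 28.5 to 42.9), as were 4 of 4 intestine markers (77.8 to 127 against 6.6 to 12.2) and 3 of 4 epidermis markers. No marker was at 0 in all libraries of a group. The part of these shifts in the changes of the 7 genes was not tested. Of the related lists, 18 of 23 nucleoporins were lower and 0 higher, as were 6 of 8 import genes, with ran-1, the Ran GTPase itself, at -1.02, and 2 of 5 heterochromatin genes. Among the other envelope genes anc-1 was 3.93 higher and sun-1 1.20 lower on the log2 scale.

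Embryos labelled heterozygous for dpy-27 gave no calls among the 7 genes. Against N2, 0 of 7 genes passed and 0 had an unadjusted p under 0.05 (limma, 14.9% of all genes passed). Against dpy-27 homozygotes both counts were again 0, and 0% of all genes passed. The 2 libraries gave 202 and 377 FPKM for lem-2, 142 and 108 for unc-84 and 39.4 and 21.9 for hpl-1. Their body muscle markers summed to 196 and 546 FPKM. Single libraries set the sign here: against N2, lem-2 differed by 0.64 without the first heterozygous library (adjusted p = 0.021) and by -0.70 without the second (adjusted p = 0.044). Against dpy-27 homozygotes it differed by -1.62 without the first (adjusted p = 0.043). The N2 early embryo libraries serve as the control of this comparison, of the dpy-27 and dpy-21 comparisons and of the comparison with mixed sex embryos.

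In dpy-27 mutant L1 larvae 0 of 7 genes passed, 0 had an unadjusted p under 0.05 and 0.34% of all genes passed (limma). The mutant libraries gave unc-84 at 25, 18 and 21 FPKM against 17.2 and 18.5 in N2, a difference of 0.06 (95% interval -0.48 to 0.60). For hpl-1 they gave 15.6, 12.1 and 13.8 against 7.43 and 9.32, which do not overlap, with a difference of 0.54 (-0.13 to 1.21, adjusted p = 0.41). The left-out library found under the N2 and mixed sex L1 labels held hpl-1 at 14.6 FPKM, within the mutant range. Epidermis markers summed to 123 to 139 FPKM in the mutant and 103 and 112 in N2, also apart, and their part was not tested. The other 5 genes differed by -0.27 to 0.10.

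RNAi against dpy-27 in N2 gave small shifts in the X-linked genes that did not pass after adjustment. In mixed embryos unc-84 was at 150, 109, 170 and 147 FPKM with dpy-27 RNAi, and at a lowest of 76, a median of 120 and a highest of 185 over the 6 vector libraries. The groups overlapped and differed by 0.20 (95% interval -0.48 to 0.88). For hpl-1 the RNAi libraries gave 41.1, 42, 30.1 and 36.5 FPKM against 21 to 40.1, a difference of 0.27 (-0.21 to 0.74). Here 0 of 7 genes passed and 0 had an unadjusted p under 0.05, and 0% of all genes passed (limma). Summed dividing cell markers ran from 2092 to 12871 FPKM over the vector libraries and from 2390 to 6348 over the RNAi libraries, and the part of this in the spread of the 7 genes was not tested.

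Libraries with the same number moved together in mixed embryos, where the correlation of their deviations was 0.52 to 0.91 over libraries 1 to 4. Within number, unc-84 was higher with RNAi in 4 of 4 pairs, with ratios of 1.24 to 1.43, and hpl-1 in 4 of 4 pairs, with ratios of 1.04 to 1.44. With the number as a block and vector libraries 5 and 6 left out, an alternative chosen after seeing the data, the difference was 0.51 ± 0.09 for unc-84 (limma, adjusted p = 0.12) and 0.40 ± 0.13 for hpl-1 (adjusted p = 0.17). The other genes were also mostly above 1 in these pairs: lmn-1, baf-1, emr-1 and lem-2 were higher in 4 of 4 and zyg-12 in 2 of 4.

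At L3 unc-84 was at 31.1, 33.9, 33.2 and 35.6 FPKM with dpy-27 RNAi against 22.1, 28.4, 24.8 and 21.3 with vector. All 4 RNAi libraries lay above all 4 vector libraries, with ratios of 1.19 to 1.67 within number, and the difference was 0.42 (95% interval 0.11 to 0.73, limma, adjusted p = 0.26). Body muscle markers were apart in the same libraries, with sums of 2458 to 2631 FPKM with RNAi and 3108 to 3356 with vector and 0 of 4 called, and their part was not tested. For hpl-1 the values were 15.8, 13.1, 16 and 11.5 FPKM against 10.2, 7.12, 9.91 and 12.5, higher in 3 of 4 pairs, with a difference of 0.46 (-0.0041 to 0.93, adjusted p = 0.41). Thus 0 of 7 genes passed, 1 (unc-84) had an unadjusted p under 0.05, and 0.0313% of all genes passed. With the number as a block, which the correlations of 0.14 to 0.63 allow, 233 genes instead of 4 passed, but unc-84 did not (adjusted p = 0.10). The autosomal genes differed by -0.07 to 0.26. In a test of whether the RNAi difference changed between the stages, 0 of 7 genes and 0% of all genes passed, and 0 genes had an unadjusted p under 0.05.

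**Figure D3:**
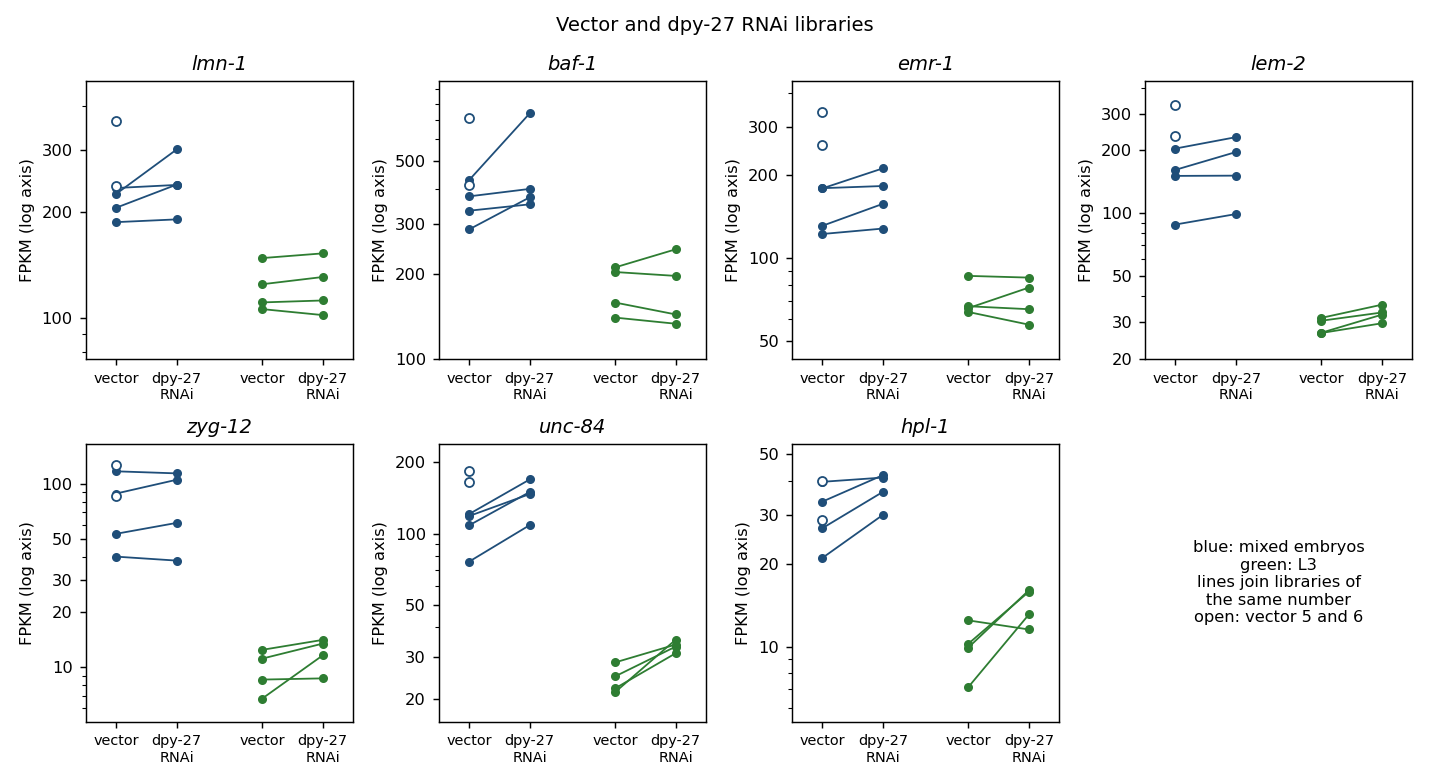
FPKM of each of the 7 genes (log scale, 1 panel a gene) in vector and dpy-27 RNAi libraries of mixed embryos (blue) and L3 larvae (green), each point being a library and each line joining libraries that carry the same number. For unc-84 all 4 lines of each stage rise from vector to RNAi, and vector libraries 5 and 6 of the mixed embryos (open points) have no partner.

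In L3 larvae of dpy-21 mutants both X-linked genes were higher than in N2, and the other 5 genes did not pass. The level of hpl-1 was 20, 15.2, 16.8 and 15.2 FPKM against 8.65, 10.2, 10.6 and 7.4 in the second N2 L3 collection, 1.74-fold higher (0.80 ± 0.12, limma, adjusted p = 0.0082). For unc-84 it was 34.4, 39.4, 33.8 and 33.3 against 25.8, 23.7, 24.7 and 19, 1.44-fold higher (0.53 ± 0.10, adjusted p = 0.018). In each gene the 4 mutant libraries lay above the 4 N2 libraries. So 2 of 7 genes were called, where 6.96% of all genes passed (6.21% higher) and 30% of X genes did, and 29.7% of X genes were higher. Dividing cell markers summed to 215 to 313 FPKM in the mutant and 226 to 298 in N2, and 0 of the 11 passed, as was the case for all other marker lists. Of the autosomal genes lmn-1 at 92, 98.7, 95.4 and 97.1 FPKM differed by -0.09 (-0.35 to 0.16), and baf-1, emr-1, lem-2 and zyg-12 by -0.05, 0.04, 0.19 and -0.32. The related lists gave 0 calls among 23 nucleoporins, 8 import genes, 7 other envelope genes and 5 heterochromatin genes.

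No label says which N2 L3 collection was made alongside the mutants. Against the first N2 L3 collection the differences were 0.80 for unc-84 and 0.75 for hpl-1 (limma, adjusted p = 0.0011 and 0.0017), and baf-1 was lower (-0.37, adjusted p = 0.014). With that control 5464 genes passed instead of 878, and 53% of them instead of 89.2% were higher. The unc-84 call was lost without mutant library 2, 3 or 4, with adjusted p of at most 0.065.

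**Figure D4:**
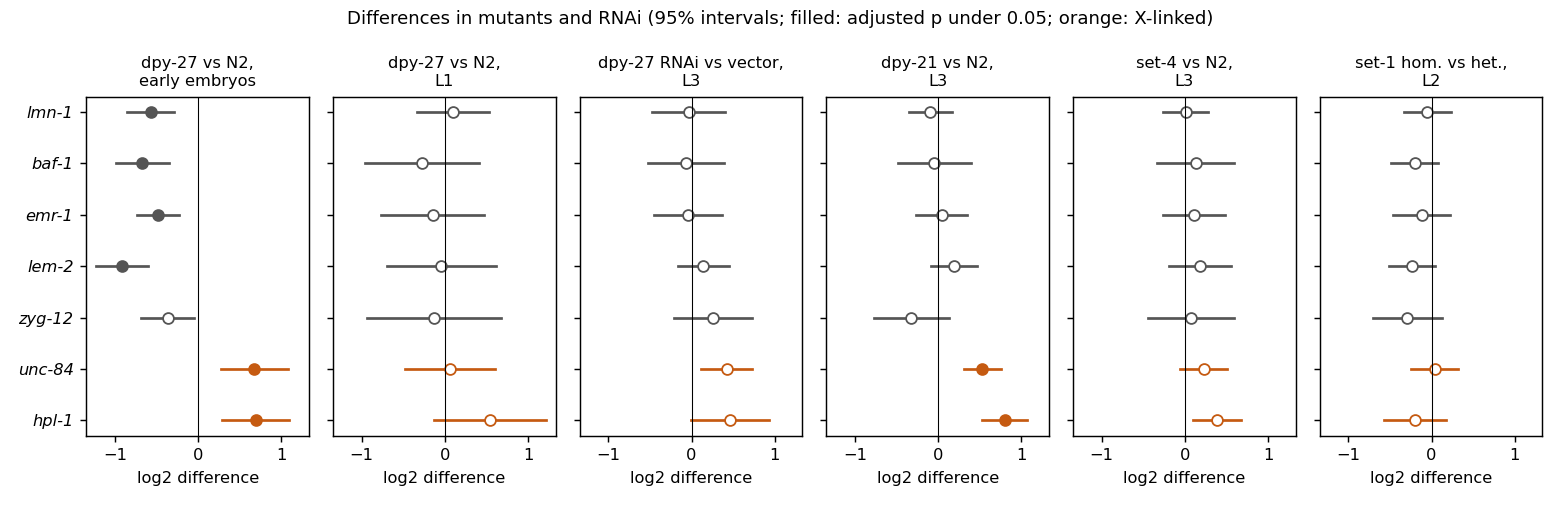
Log2 difference of each of the 7 genes with its 95% interval in the mutant and RNAi comparisons (1 panel a comparison), with the X-linked genes unc-84 and hpl-1 set apart by colour and calls by filled points. In dpy-27 early embryos and dpy-21 L3 larvae both X-linked genes are filled and above 0, and the only filled points below 0 are the autosomal genes of dpy-27 early embryos.

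In dpy-21 early embryos 0 of 7 genes passed, where 6.02% of all genes did, and 1 (zyg-12) had an unadjusted p under 0.05 (limma). The level of zyg-12 was 134, 110 and 152 FPKM against 109, 110 and 127, a difference of 0.46 (95% interval 0.14 to 0.77, adjusted p = 0.077). Before scaling, the means of zyg-12 were 132 and 115 FPKM, with ranges that overlap. Unscaled levels of emr-1 (220, 185 and 269 FPKM) and baf-1 (677, 484 and 597) lay below all N2 libraries, and neither gene passed. The X-linked genes differed by 0.17 (-0.54 to 0.88) for unc-84, at 116, 95.9 and 62.6 FPKM, and by -0.03 (-0.59 to 0.52) for hpl-1, at 21.8, 16.2 and 15.8. Without scaling, 21.1% of all calls were higher instead of 47.1%. Without the third library, lem-2, unc-84 and zyg-12 were called higher by 0.61, 0.49 and 0.42 (limma, adjusted p = 0.025, 0.039 and 0.033). Over all genes that library correlated better with N2 than with its replicates, but its dpy-21 transcript, at 21.3 FPKM, was the furthest below N2. Body muscle markers summed to 197, 112 and 27.2 FPKM in the 3 libraries against 28.5 to 42.9 in N2, and dividing cell markers to 5855 to 9673 against 11674 to 12281. The part of this in the result was not tested.

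The enzymes of H4K20 methylation gave no calls among the FPKM libraries. In set-4 L3 larvae unc-84 was at 32.3, 29.1, 24 and 23.5 FPKM, overlapping N2, with a difference of 0.23 (95% interval -0.06 to 0.51, limma, adjusted p = 0.91). For hpl-1 the libraries gave 11.7, 13.3, 13.6 and 9.28 FPKM, a difference of 0.39 (0.10 to 0.67, adjusted p = 0.91), the only gene of 7 with an unadjusted p under 0.05. Here 0.00801% of all genes passed, and these libraries share their N2 controls with the dpy-21 L3 comparison. Set directly against set-4 at L3, dpy-21 gave 0 calls of 7, with 6.59% of all genes passing and 3 of 7 at an unadjusted p under 0.05. Those were hpl-1 at 0.41 (0.14 to 0.68, adjusted p = 0.074), unc-84 at 0.29 (0.04 to 0.55, adjusted p = 0.14) and zyg-12 at -0.40 (-0.72 to -0.09, adjusted p = 0.11). Without scaling, 92.5% of all calls in that comparison were higher instead of 80%.

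In mixed embryos, dpy-21 against set-4 by label, 0 of 7 genes passed and 0 had an unadjusted p under 0.05 (limma), with 0% of all genes passing. The differences ran from -0.12 to 0.07. Leaving out both libraries that go against their labels, an alternative chosen after seeing the data, kept the count of 7 genes at 0 while 4 genes in all passed. The set-1 homozygous and heterozygous larvae likewise gave 0 of 7, with 0 at an unadjusted p under 0.05 and 0.0156% of all genes passing. There unc-84 was at 26.6, 25.2 and 26.4 FPKM against 29.4, 25.4 and 24.7 (0.04, -0.24 to 0.32), and lem-2 at 31.1, 31.5 and 28.8 against 40.4, 39.1 and 32.9 (-0.23, -0.51 to 0.04), without overlap. The X-linked hpl-1 was also lower without overlap, at 9.95, 9.67 and 7.5 FPKM against 10.7, 10 and 11.5. The median log2 difference over X genes was 0.31 in that comparison. Body muscle markers summed to 3451 to 3711 FPKM in homozygotes and 2734 to 3372 in heterozygotes, with 0 of 4 called, and their part was not tested. The set-1 transcript itself was at 20.3 to 24.9 FPKM in homozygotes and 24.2 to 26.4 in heterozygotes.

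The spike-in experiment allows the same genes to be read per amount of C. briggsae RNA added, since N2 or set-4 L1 larvae were mixed with a fixed share of C. briggsae L1 larvae (strain AF16). C. elegans genes received 1533531 to 3215078 reads a library and C. briggsae genes 129184 to 331898, and set-4 itself had 43, 59 and 72 reads in N2 and 1 in each of the 3 set-4 libraries. Scaled to C. briggsae reads, 4 of 7 genes were lower in set-4, where 26.2% of all genes passed, 20.8% lower and 5.47% higher. Counts of zyg-12 were 120, 89.2 and 99.1 in N2 and 69.2, 55.2 and 44.2 in set-4 (-0.88 ± 0.23, edgeR quasi-likelihood, adjusted p = 0.0080). For lem-2 they were 229, 292 and 300 in N2 and 189, 135 and 147 in set-4 (-0.82 ± 0.18, adjusted p = 0.0029). No set-4 library reached the N2 range in these genes. The LEM partner emr-1 went from 132, 137 and 142 to 105, 72.1 and 78 (-0.70 ± 0.20, adjusted p = 0.014), and baf-1 from 155, 261 and 160 to 121, 123 and 121 (-0.66 ± 0.20, adjusted p = 0.022).

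The lamin gene and unc-84 did not follow. Scaled counts of lmn-1 were 1393, 1145 and 1156 in N2 and 1291, 1088 and 1123 in set-4 (-0.08 ± 0.16, edgeR, adjusted p = 0.76), and unc-84 went from 345, 374 and 351 to 405, 341 and 336 (0.01 ± 0.16, adjusted p = 0.96). For hpl-1, 13.6, 16.9 and 13.4 in N2 stood against 35.7, 30.2 and 20.6 in set-4, without overlap (0.97 ± 0.37, adjusted p = 0.057). That gene was thinly covered, with 7 to 16 raw reads in each N2 library. On this scale the median of all 10080 genes tested was itself -0.24, with 0.13 on the X and -0.31 on the autosomes. Relative to the median of all genes the differences were -0.64 for zyg-12, -0.58 for lem-2, -0.46 for emr-1, -0.42 for baf-1, 0.16 for lmn-1, 0.25 for unc-84 and 1.21 for hpl-1. Scaled within C. elegans reads (TMM) instead, 50.3% of all calls were higher instead of 20.8%, baf-1 was no longer called (-0.43, adjusted p = 0.14), hpl-1 was called higher (1.17, adjusted p = 0.023) and the sign of lmn-1 turned (0.14, adjusted p = 0.30). Without set-4 library 2 or 3 lem-2 was the only call.

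**Figure D5:**
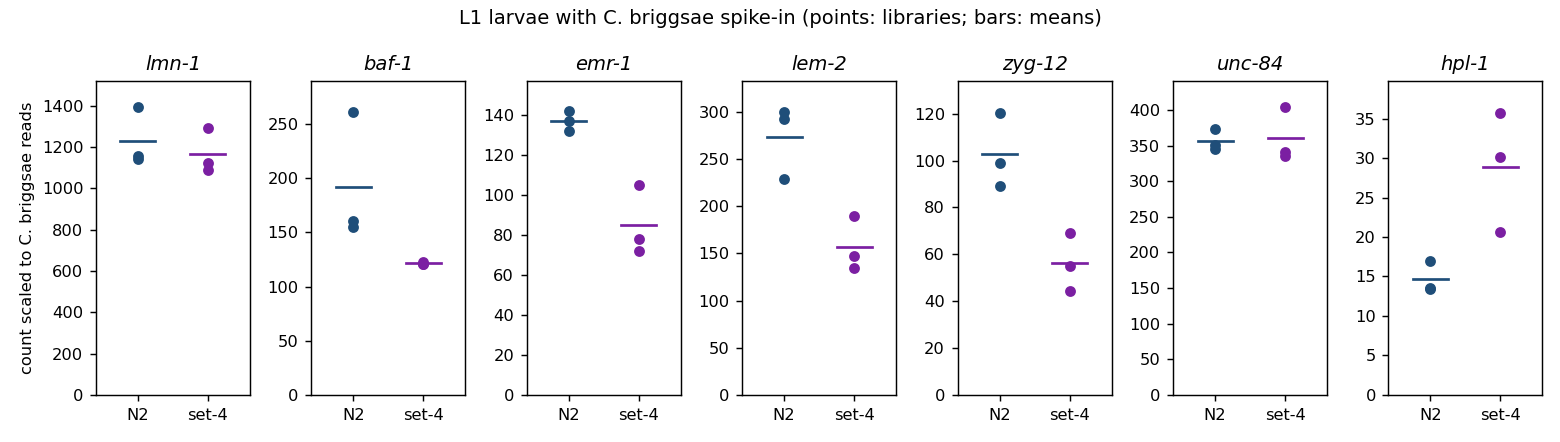
Read counts of the 7 genes in L1 larvae of N2 and set-4, scaled to the C. briggsae reads of each library (linear scale from 0, 1 panel a gene), each point being a library and each bar a group mean. The baf-1, emr-1, lem-2 and zyg-12 points of set-4 lie below those of N2, lmn-1 and unc-84 overlap, and hpl-1 lies higher on few reads.

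Over all 23 groups the 7 genes differed in how far their means ranged. The ratio of the highest to the lowest group mean was 13.6 for zyg-12, 11.7 for lem-2, 9.43 for unc-84, 8.43 for baf-1, 8.07 for emr-1, 4.75 for lmn-1 and 4.67 for hpl-1. For the 5 autosomal genes the highest mean was in early embryos, of dpy-21 for lmn-1 (455 FPKM), lem-2 (335) and zyg-12 (132) and of the mixed sex animals for baf-1 (985) and emr-1 (378). For unc-84 (169) and hpl-1 (39.1) it was in dpy-27 early embryos. Lowest means were found in larvae for every gene: lmn-1 at 95.8 in dpy-21 L3, baf-1 at 117 in mixed sex L1, emr-1 at 46.8 in set-1 homozygotes, lem-2 at 28.8 and zyg-12 at 9.73 in vector L3, and unc-84 at 17.9 and hpl-1 at 8.38 in N2 L1. Most neighbours in the order overlapped. Of 22 neighbouring pairs, the ranges were apart in 3 for emr-1, 2 each for lmn-1, lem-2 and baf-1, 1 each for unc-84 and zyg-12 and 0 for hpl-1. The gap in unc-84 separated all 11 embryonic groups from all larval groups, with the lowest embryonic library at 62.6 (dpy-21 early) and the highest larval library at 39.4 (dpy-21 L3).

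Across the 23 group means on the log2 scale, the members of the set were not equally alike. The closest pair was lem-2 and zyg-12 (Pearson r = 0.98), then emr-1 and baf-1 (0.90) and the 2 X-linked genes unc-84 and hpl-1 (0.90). The least alike were lmn-1 and hpl-1 (0.18) and lmn-1 and unc-84 (0.32). Groups share strains, stages and control libraries, so these values describe the table and carry no test. The correlation with the summed dividing cell markers was 0.98 for zyg-12, 0.96 for lem-2, 0.92 for emr-1 and baf-1, 0.78 for lmn-1, 0.76 for unc-84 and 0.59 for hpl-1.

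Among 13616 genes compared over the same 23 means, the genes most like each member were the following. For zyg-12 they were T12F5.1 and div-1 (a subunit of the DNA polymerase alpha complex), both at 0.99, and for lem-2 rga-4 and csc-1 (a chromosomal passenger protein), also at 0.99. The pattern of baf-1 was most like npp-22 and F21D5.1 (0.98). For emr-1 the nearest were snr-4 (an Sm protein of the spliceosome) and ubc-9 (the SUMO-conjugating enzyme) at 0.96, and for lmn-1 T01B7.5 at 0.96 and spr-2 at 0.95. The nearest genes to unc-84 were pix-1 and F31A3.5 (0.98) and those to hpl-1 were F52H2.7 and C36E6.2 (0.93). All 4 of these also lie on the X, which holds 2716 of the 19904 genes placed on a chromosome. Genes with r above 0.9 numbered 1581 for zyg-12, 1266 for lem-2, 474 for baf-1, 363 for emr-1 and 220 for unc-84. For lmn-1 there were 88 and for hpl-1 13.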

How the data were processed

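The authors sequenced strand-specific poly(A) mRNA libraries, aligned reads with TopHat to WS220 and deposited 1 table of FPKM values from Cufflinks, and count files from HTSeq for the spike-in libraries, made against C. elegans and C. briggsae genes. The submitters' processing notes name CASAVA 1.8, TopHat2 2.0.11, Cufflinks 2.2.0 and HTSeq 0.6.0. Read depth of the FPKM libraries is unknown, since FPKM values keep no totals. A further 13 columns of the table, which match no sample used here, and 61 ChIP samples of the 146 samples were not used.

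FPKM values were tested on log2(FPKM + 0.1) with limma 3.58.1 (R 4.3.3, moderated with a mean trend) after median-of-ratios scaling, over genes with a mean of group means above 1 FPKM, and p-values were adjusted over all genes tested (Benjamini-Hochberg, threshold 0.05). Fold changes are on that scale and understate changes of low genes. Blanks in 78 genes were left out. Spike-in counts were tested with edgeR 4.0.16 (quasi-likelihood, genes with a mean count of at least 10, library sizes from TMM over C. briggsae genes), with DESeq2 1.42.0 and TMM over C. elegans genes as alternatives. The summary lines of the deposited C. briggsae count file (24.5% to 26.9% of that file's total in each library) were left out. The tests were run on simulated data first. Replicate numbers paired the libraries, by correlations of deviations all above 0.1, in 5 comparisons: dpy-27 RNAi in mixed embryos over libraries 1 to 4 (0.52 to 0.91) and at L3 (0.14 to 0.63), dpy-21 early embryos (0.17 to 0.22), set-4 L3 (0.27 to 0.70) and set-1 (0.11 to 0.39). This comes from the data and not from the labels. All 7 genes were named, with the 2 genes most like each of them and, in each related list, the gene with the largest rise and fall among calls. The members and lists were chosen with earlier results of these data known. The labels give set-1 larvae as L2, whereas the table's columns and the study's methods give L3. The study calls its replicates biological, and p-values measure the spread between these libraries.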

Additional observations from a re-analysis of the deposited data

Results flagged for a closer look

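Of 63 sets of 4 to 6 libraries tested for a library far from the rest (Dixon, 95%), 6 had 1, where chance gives about 1 in 20. Vector library 5 of the mixed embryos was high for lmn-1 (363 FPKM, the others at 187 to 237) and baf-1 (712, the others at 287 to 429), and its dividing cell markers summed to 12871 FPKM against 2092 to 8218 in the others. The mixed embryo library labelled set-4 number 1 was high for emr-1 (287 FPKM against 128 to 144) and lem-2 (216 against 107 to 111), with dividing cell markers at 7691 against 2462 to 2907. The dpy-27 RNAi mixed embryo library 4 was high for baf-1 (741 FPKM against 352 to 400), with dividing cell markers at 6016, within the range of its group, 2390 to 6348. Vector L3 library 3 was high for emr-1 (86.2 FPKM against 63.8 to 66.9). The part of stage composition in these values was not tested.

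The fall of lmn-1 from early to comma embryos differed between N2 and mixed sex animals, with an interaction of -0.50 (SE 0.13, limma, adjusted p = 0.039), the only one called of 28 such tests on the 7 genes over 4 comparisons. In that comparison 7.8% of all genes passed. The call was lost in 13 of 17 alternative settings.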

How the results depend on the processing

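The alternative settings changed pseudocount, expression filter, scaling, trend and replicate block, or left out each library in turn. Others kept the library under 2 labels, used the first N2 L3 collection or were chosen after seeing the data. The spike-in also had other normalizations, no filter and DESeq2. Each called gene difference was counted once for every alternative setting, which gave 452 comparisons with the main fit. In 382 of them the call was kept, in 70 it was lost and in 0 it changed sign. Losses were uneven: the mixed sex comma to L1 call of baf-1 was lost in 8 of 11 settings. The N2 L1 to L3 call of lem-2 was lost in 7 of 11. Counted the same way, 18 values not called in the main fit were gained. Among 1917 values past the threshold in neither fit, 169 changed sign. Not called with all libraries (-0.05), lem-2 in heterozygous against N2 embryos was called with opposite signs when 1 was left out, 0.64 without the first heterozygous library and -0.70 without the second. The number of the 7 genes called from L1 to L3 in N2 was 1 instead of 3 without scaling, without the mean trend or with the replicate block. With the replicate block it was 1 instead of 2 in mixed sex L1 to L3 and in dpy-21 L3, where only hpl-1 was called (unc-84 adjusted p = 0.065) and the numbers do not pair the libraries. The sex by stage test from early to comma was 0 instead of 1 with no expression filter, without scaling or without the trend. Leaving out each library in turn gave 3 to 6 calls for N2 comma to L1, 0 to 4 for N2 L1 to L3, 4 to 5 for mixed sex comma to L1, 1 to 3 for mixed sex L1 to L3, 4 to 7 for dpy-27 early embryos and 0 to 1 for either comparison of heterozygotes. It gave 0 to 3 for dpy-21 early embryos, 1 to 2 for dpy-21 L3, 0 to 1 for the sex by stage tests of the first and last intervals and 1 to 4 for the spike-in, and 5 to 6 and 6 to 7 for early to comma in N2 and mixed sex.

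Where numbers pair the libraries, the block changed no call among the 7 genes, while all-gene counts went from 4 to 233 (RNAi L3), 580 to 1052 (dpy-21 early), 0 to 2 (RNAi mixed embryos), 1 to 3 (set-4 L3) and 2 to 0 (set-1). Elsewhere the block moved them from 4094 to 1893 (N2 L1 to L3), 4430 to 1831 (mixed sex L1 to L3), 831 to 37 (dpy-21 against set-4 L3), 878 to 560 (dpy-21 L3), 1564 to 580 (heterozygotes), 48 to 26 (dpy-27 L1), 8 to 1 and 2 to 0 (sexes at comma and L3), and 55 to 5 and 109 to 8 (sex by stage, comma to L1 and L1 to L3). For the comparison of the sexes at L1, which share only 1 number, no paired analysis was possible. Without an expression filter the counts were 942 instead of 1491 (sexes, early) and 222 instead of 580 (dpy-21 early), without the trend 57 (dpy-21 early) and 254 instead of 48 (dpy-27 L1), and 0 instead of 48 with the library under 2 labels kept. The first N2 L3 collection gave 5464 instead of 878 for dpy-21 L3 and 342 instead of 1 for set-4 L3. For the sex by stage tests that use L1 the counts were 0 instead of 55 and of 109 with that library kept, 126 and 184 without the filter, 105 instead of 55 without the trend and 62 instead of 109 with a pseudocount of 1. Smaller counts also moved: sexes at comma 16 without the filter and 24 without the trend instead of 8, sexes at L3 1 without scaling and 4 without the trend instead of 2, and sexes at L1 1 instead of 0 with a pseudocount of 1. With that pseudocount set-4 L3 gave 5 instead of 1, set-1 gave 8 instead of 2 and RNAi by stage 5 instead of 0. For set-4 L3 the count was 2 without the filter or the trend and 3 without scaling, and for set-1 it was 1 without the filter and 0 without scaling. Without both mixed embryo libraries that go against their labels it was 4 instead of 0, and dpy-27 L1 without scaling gave 76 instead of 48. The cause of these changes was not tested. Depth of the FPKM libraries is unknown, and in the spike-in hpl-1 had 7 to 16 raw reads in each N2 library.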
